A study of Arabidopsis thaliana with 17 samples.

Results

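The genes of the photosynthetic apparatus were followed in shoots and roots of Arabidopsis thaliana plants that lack NBR1, a selective autophagy cargo receptor. Members were the probe sets that the platform's annotation table pairs with a single gene symbol for a light-harvesting protein (LHCA, LHCB), a subunit of photosystem I (PSA), photosystem II (PSB), the cytochrome b6f complex (PET) or the NDH complex (NDH), or a Rubisco subunit (RBC). This rule took 44 of the 28583 probe sets on the array, of which 35 belonged to plastid-encoded and 9 to nuclear genes. The plastid members were 13 photosystem II, 10 NDH, 6 cytochrome b6f and 5 photosystem I genes together with rbcL. The nuclear members were LHCB4.1 (AT5G01530), LHCB4.2 (AT3G08940) and LHCB4.3 (AT2G40100), PSAE-1 (AT4G28750) and PSAN (AT5G64040), PSBW (AT2G30570) and PSBY (AT1G67740), and NdhL (AT1G70760) and NdhN (AT5G58260). A further 3 probe sets carried several symbols (psbC with psbD, and ndhB on the other two) and were left out. LHCA, RBCS and nuclear PET genes were not among the single-symbol names of the table and were not analysed here.

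Transcript levels were RMA log2 signals from 17 Affymetrix Arabidopsis Gene 1.1 ST arrays. The groups were shoots of KO1, KO3 and Col-0 wild type (WT), with 3 arrays each, and roots of KO1 and KO3 with 3 arrays each and of WT with 2 (replicates 1 and 3). KO1 and KO3 are homozygous deletion lines of NBR1 made by CRISPR/Cas9 and freed of the transgene by crossing, each of them 1 line, and all plants were 4 weeks old and grown in hydroponic boxes under short days. RNA of each sample was drawn from at least 3 plants, and the labels call the samples biological replicates. In bulk tissue, fewer green cells or plastids and less RNA per cell cannot be told apart.

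The signal of NBR1 (AT4G24690) was 1.67, 1.52 and 1.71 in KO1 shoots and 1.81, 1.65 and 1.54 in KO3 shoots, against 5.73, 6.44 and 6.37 in WT shoots. In roots it was 3.26 to 3.70 in KO1 and 3.82 to 4.59 in KO3, against 7.23 and 7.41 in WT. Every KO array thus lay below every WT array, as labelled. The root hair expansin gene EXPA18 had signals of 0.99 to 1.61 in the shoot arrays and 4.02 to 4.65 in the root arrays, and YAB3, a leaf polarity gene, 3.96 to 5.62 in shoots and 1.25 to 1.71 in roots, and of the 6 shoot markers listed 5 were called higher in shoots in each line, while MUTE had -0.08, 0.19 and 0.16 in KO1, KO3 and WT and did not pass. The median over all probe sets of an array lay between 1.72 and 1.85 in shoots but between 2.61 and 2.67 in roots, and whether the authors normalised both organs together is not given in the sources used here. Differences between organs were therefore taken after quantile normalisation of all 17 arrays. KO1 shoots replicate 1 stood apart: its probe sets had a standard deviation of 1.41, where the remaining shoot arrays had 1.94 to 2.07, and its mean Pearson correlation with them was 0.934, where theirs were 0.971 to 0.976. Medians and counts for KO1 shoots are given with and without it. Among the root arrays WT replicate 1 had the lowest mean correlation with the rest, 0.978, where the others had 0.983 to 0.987.

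Light is captured in the thylakoid membrane by antenna proteins around both photosystems. Photosystem II takes electrons from water, the cytochrome b6f complex passes them on through plastocyanin, and photosystem I delivers them to ferredoxin, while the plastid NDH complex returns part of them to the plastoquinone pool in cyclic flow. All of these complexes, and Rubisco, are mosaics: their core subunits are made from the plastid genome and most peripheral and antenna subunits from nuclear genes whose proteins are imported. Roots hold non-green plastids with the same genome. Plastid genes are present in many copies per cell and are mostly read as long joint transcripts that are cut and edited later, so that signals of neighbours such as psbB, psbT, psbH, petB and petD are not independent of each other. A signal also depends on the probes, and levels are compared here only between arrays for the same gene, or as the position of a gene among all probe sets of an array.

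Members were placed by their percentile among all probe sets of an array, which depends on the probes as well as on the transcript. On shoot arrays the median signal of the plastid members stood at a percentile of 99.7 to 99.8 among all probe sets and that of the nuclear members at 98.2 to 98.7. On root arrays the plastid median stood at a percentile of 96.8 to 98.7, whereas the nuclear median stood at 19.2 to 44.7. Of the 35 plastid members, 33 lay above the array median on every root array, and 7 of the 9 nuclear members (all but LHCB4.1 and PSBW) lay below it on every root array. Root signals of those nuclear genes are in the range where array background weighs most. Their differences between organs are therefore given as fitted, not as exact sizes, and are not ranked or turned into folds.

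**Figure D1:**
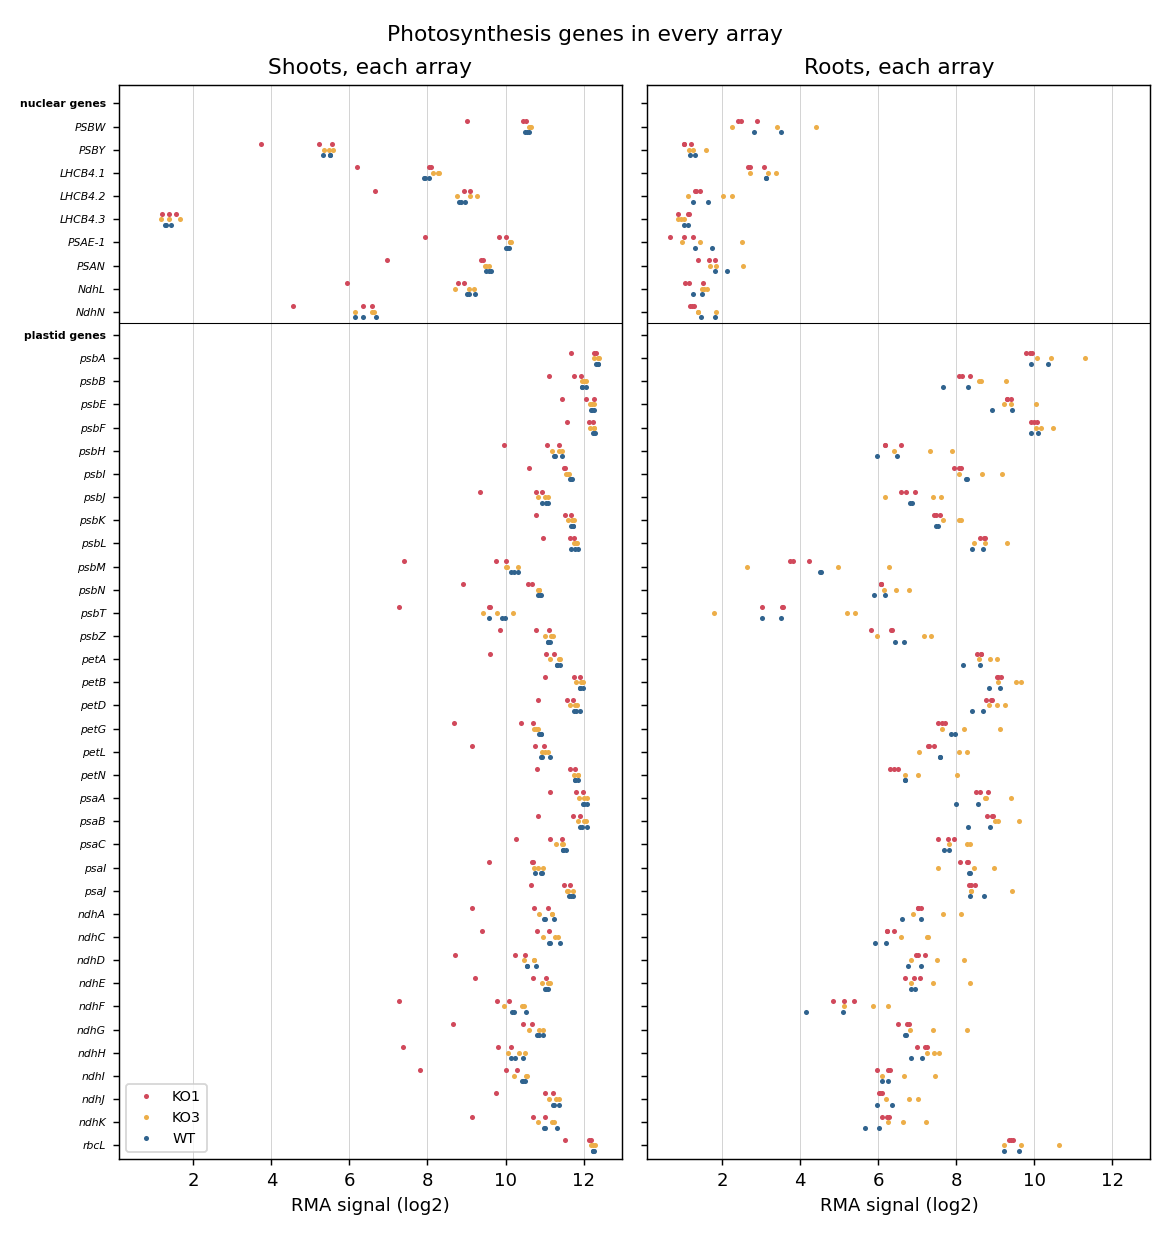
Each point is the RMA log2 signal (x axis) of 1 gene (rows) on 1 array, shoots in the left panel and roots in the right, with KO1, KO3 and WT in 3 colours. Nuclear genes other than LHCB4.3 lie at 3.74 to 10.65 in shoots and at 0.67 to 4.41 in roots, plastid genes at 7.26 to 12.39 in shoots and at 1.78 to 11.29 in roots, and KO1 replicate 1 is the lowest shoot point in every row but that of LHCB4.3.

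In shoots against roots, all 44 members were higher in KO1, all 44 in KO3 and 43 of 44 in WT (limma on all probe sets, Benjamini-Hochberg adjusted p under 0.05), where 21.9%, 20.7% and 19.3% of all probe sets were called higher. The median log2 difference of the nuclear members was 7.11 in KO1, 6.80 in KO3 and 6.95 in WT, and that of the plastid members 2.78, 2.27 and 3.03, while the median over all probe sets was between -0.01 and 0.00. As folds, the plastid medians come to 6.87-fold, 4.83-fold and 8.15-fold. Without KO1 shoots replicate 1 the KO1 medians were 7.41 for nuclear and 2.72 for plastid members. Values as deposited gave nuclear medians of 6.65, 7.24 and 7.39 and plastid medians of 3.19, 3.23 and 3.76 in KO1, KO3 and WT.

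PSAE-1 is a nuclear photosystem I gene whose protein helps to dock ferredoxin on the stromal side. Its signals were 7.94, 10.01 and 9.84 in KO1 shoots against 1.03, 1.26 and 0.67 in KO1 roots, 10.14, 10.12 and 10.12 in KO3 shoots against 1.44, 0.96 and 2.51 in KO3 roots, and 10.05, 10.02 and 10.08 in WT shoots against 1.75 and 1.29 in WT roots. Shoots and roots did not overlap, and the highest root signal was the 2.51 of KO3 replicate 3. After quantile normalisation the log2 difference was 8.42 in KO1 (standard error 0.22, adjusted p = 4.51e-15), 7.93 in KO3 (standard error 0.22, adjusted p = 9.80e-15) and 7.89 in WT (standard error 0.24, adjusted p = 6.06e-14). PSAN, a subunit on the lumenal side, differed by 7.40, 7.10 and 7.15 in KO1, KO3 and WT. PSBW, a small photosystem II protein, had 9.02, 10.52 and 10.46 in KO1 shoots against 2.88, 2.40 and 2.49 in KO1 roots, 10.61, 10.64 and 10.65 in KO3 shoots against 3.40, 2.26 and 4.41 in KO3 roots, and 10.54, 10.61 and 10.50 in WT shoots against 3.51 and 2.82 in WT roots. Again no shoot array overlapped a root array. Its differences were 7.80, 7.12 and 7.12 in KO1, KO3 and WT, and those of PSBY, another small photosystem II protein, 4.44, 4.27 and 4.38. The NDH subunits NdhL and NdhN differed by 7.11, 6.92 and 7.20 and by 5.24, 4.86 and 4.78.

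The LHCB4 genes, which all encode forms of the minor photosystem II antenna CP29, did not behave alike. LHCB4.2 had signals of 6.66, 9.10 and 8.93 in KO1 shoots against 1.33, 1.30 and 1.44 in KO1 roots, 8.76, 9.08 and 9.27 in KO3 shoots against 2.03, 1.13 and 2.24 in KO3 roots, and 8.82, 8.85 and 8.95 in WT shoots against 1.63 and 1.25 in WT roots. Its log2 difference was 7.30 in KO1, 6.80 in KO3 and 6.95 in WT, and that of LHCB4.1 was 5.59, 5.18 and 4.90. LHCB4.3, by contrast, was dim in both organs, at 1.17 to 1.65 on the shoot arrays and 0.86 to 1.14 on the root arrays, always under the array median. It differed by 0.46 in KO1 (standard error 0.17, adjusted p = 0.0329), 0.60 in KO3 (standard error 0.17, adjusted p = 0.00802) and 0.40 in WT (standard error 0.19, adjusted p = 0.105), the member that did not pass the threshold in WT.

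Plastid members spread widely in their difference between organs, from 1.37 to 6.35 in KO1, 1.04 to 5.41 in KO3 and 1.40 to 6.37 in WT. Photosystem II genes held both ends of this range in KO1 and KO3, and psaI of photosystem I the lower end in WT. psbT, a small photosystem II subunit, had signals of 7.26, 9.59 and 9.57 in KO1 shoots against 3.52, 3.56 and 3.01 in KO1 roots, 9.42, 9.79 and 10.20 in KO3 shoots against 1.78, 5.19 and 5.41 in KO3 roots, and 9.92, 9.58 and 9.98 in WT shoots against 3.01 and 3.51 in WT roots. The log2 difference was 6.35 in KO1 (standard error 0.56, adjusted p = 4.22e-08), 5.41 in KO3 (standard error 0.56, adjusted p = 3.29e-07) and 6.37 in WT (standard error 0.62, adjusted p = 1.95e-07). psbM, another small subunit, followed with 6.01, 5.21 and 5.48. On KO3 roots replicate 1 psbT had 1.78 and psbM 2.63, not above the array median of 2.63. The part of low root signals in these large differences was not tested.

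psbA, which encodes the D1 reaction centre protein that is replaced after light damage, was near the other end. It had 11.69, 12.33 and 12.26 in KO1 shoots against 9.89, 9.78 and 9.95 in KO1 roots, 12.28, 12.39 and 12.37 in KO3 shoots against 10.43, 10.08 and 11.29 in KO3 roots, and 12.37, 12.33 and 12.36 in WT shoots against 9.91 and 10.34 in WT roots. The log2 difference was 1.64 in KO1, 1.04 in KO3 and 1.56 in WT (standard errors 0.18, 0.18 and 0.20), with the largest adjusted p at 9.76e-05. psbF, the beta subunit of cytochrome b559, differed by 1.37, 1.15 and 1.68. The brightest probe sets of the shoot arrays had signals of 11.95 to 12.57, close to psbA, and the part of this upper end in the small differences of the brightest genes was not tested.

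The other plastid classes were spread as well. Of the cytochrome b6f genes, petN, one of the very small subunits, differed by 5.03 in KO1, 4.02 in KO3 and 4.63 in WT, whereas petA, which encodes cytochrome f, differed by 1.51, 1.25 and 1.82 and petB, which encodes cytochrome b6, by 1.81, 1.51 and 2.04. petB had signals of 11.00, 11.91 and 11.75 in KO1, 11.80, 11.98 and 11.94 in KO3, and 11.90, 11.90 and 11.98 in WT shoots, against 9.05 to 9.14, 9.08 to 9.66 and 8.83 to 9.11 in KO1, KO3 and WT roots. The photosystem I reaction centre genes psaA and psaB differed by 2.52, 2.25 and 3.03 and by 2.00, 1.91 and 2.57, and psaI, a small subunit, by 1.69, 1.47 and 1.40. psaA had 11.13, 11.99 and 11.81 in KO1 shoots against 8.51, 8.61 and 8.82 in KO1 roots, 11.88, 12.01 and 12.08 in KO3 shoots against 8.75, 8.74 and 9.41 in KO3 roots, and 12.02, 11.98 and 12.08 in WT shoots against 7.98 and 8.56 in WT roots.

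The 10 plastid NDH genes had median differences of 3.49 in KO1, 2.86 in KO3 and 3.56 in WT, close to the 3.46, 2.94 and 3.35 of the 13 photosystem II genes and above the 2.39, 1.95 and 2.57 of photosystem I and the 1.98, 1.62 and 2.18 of cytochrome b6f. ndhF, a large membrane subunit, had the largest of the class, at 4.77, 4.24 and 5.48. ndhJ, a subunit of the stromal arm, had 9.76, 11.21 and 11.00 in KO1 shoots against 6.10, 6.01 and 6.04 in KO1 roots, 11.11, 11.36 and 11.30 in KO3 shoots against 6.19, 6.78 and 7.03 in KO3 roots, and 11.23, 11.22 and 11.37 in WT shoots against 5.97 and 6.34 in WT roots, with differences of 4.77, 3.95 and 4.55. rbcL, the large subunit of Rubisco, differed by 2.03, 1.59 and 2.07, with signals of 11.53 to 12.29 in all shoots and 9.21 to 10.63 in all roots.

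**Figure D2:**
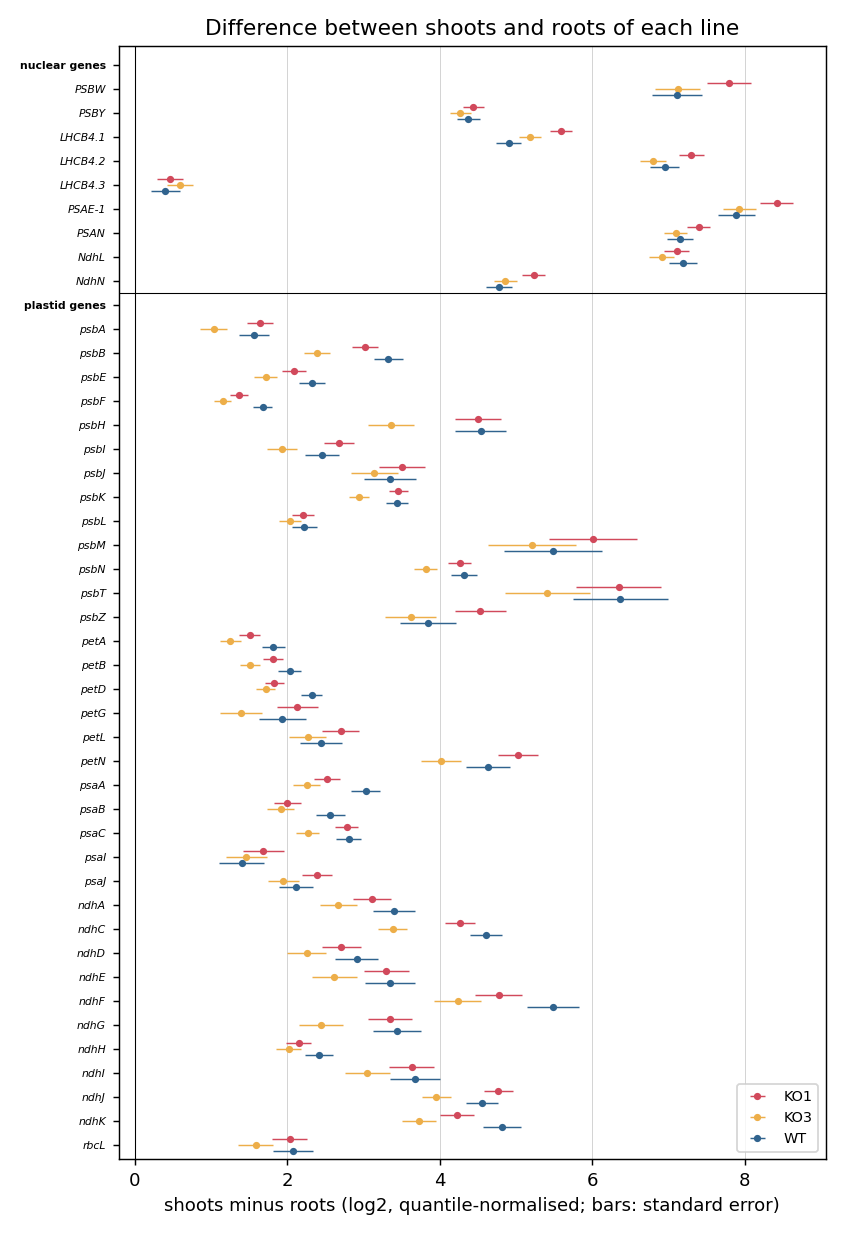
Points give the log2 difference between shoots and roots (x axis) of each gene (rows) in KO1, KO3 and WT, and bars the standard error of the limma fit. Nuclear genes other than LHCB4.3 lie at 4.27 to 8.42, and psbT and psbM are the rightmost plastid rows. The KO3 point is leftmost in 34 of 35 plastid rows on this quantile-normalised scale, against 10 of 35 in the values as deposited.

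Spearman's rho between gene length and the log2 difference over the 35 plastid members was -0.24 in KO1, -0.18 in KO3 and -0.07 in WT, as a description across genes that share transcripts. Genes of 1 joint transcript had unlike differences. psbT and petB of the psbB unit had 6.35 and 1.81 in KO1, 5.41 and 1.51 in KO3, and 6.37 and 2.04 in WT. psbT was dim on root arrays, at 1.78 to 5.41, and petB was bright on shoot arrays, at 11.00 to 11.98. The part of both ends of the signal scale in this contrast was not tested. Which line had the smallest difference depended on the scale. For the 35 plastid members it was KO3 in 34 and KO1 in 0 after quantile normalisation, KO3 in 10 and KO1 in 25 in the values as deposited, and KO3 in 13 and KO1 in 22 with array medians subtracted.

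Other genes of the pathway were read from lists. Of the 28 remaining single-symbol plastid genes, such as those of ATP synthase, ribosomal proteins and the plastid RNA polymerase, 24 were higher in shoots in KO1, 23 in KO3 and 24 in WT, with medians of 1.71, 1.44 and 2.00. clpP, a protease subunit, was lower in shoots in KO1 (-0.56, standard error 0.16, adjusted p = 0.00626) and KO3 (-0.42, standard error 0.16, adjusted p = 0.0343) and had -0.09 in WT, and accD, a subunit of the enzyme that starts fatty acid synthesis, was lower in KO3 (-0.55, adjusted p = 0.0326), with -0.47 in KO1 and -0.20 in WT. The nuclear Calvin cycle genes RCA, PRK and SBPASE, ATPC1 of the chloroplast ATP synthase and HPR of photorespiration were higher in shoots in each line. So were PGRL1B and HCF101, from a list for electron flow and light acclimation. Of 6 chlorophyll genes, 5 were higher, led by PORB (6.46 in KO1, 6.24 in KO3 and 5.77 in WT), and HEMA2, an isoform of the first enzyme of tetrapyrrole synthesis, was lower (-1.11, -0.71 and -0.61).

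In shoots, no photosynthesis gene passed the threshold in KO1 or KO3 against WT. Over all probe sets, 0 were called higher and 0.378% lower in KO1, and 0.00350% higher and 0.182% lower in KO3. At an unadjusted p under 0.05 no member passed in either line, where 1.34% and 9.07% of all probe sets were higher and lower in KO1 and 2.38% and 2.78% in KO3. The median standard error was 0.37 over the members and 0.20 over all probe sets in both comparisons. A typical member thus needed a larger difference than a typical probe set to reach that level. The lowest adjusted p of a member was 0.497, for petG in KO1.

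The values behind this were unlike in the 2 lines. In KO1, 43 of 44 members had a negative log2 difference, where 63.5% of all probe sets did, with a median of -0.58 against -0.08 over all probe sets, and 19 members lay below every WT array, where 13.5% of all probe sets did. The size of these differences depended on the scale, and in nuclear members the direction did too. After quantile normalisation of the shoot arrays the plastid median was -0.09 and the nuclear median 0.16, against -0.55 and -0.60 in the values as deposited. On that scale 31 of 35 plastid and 2 of 9 nuclear members were negative, where 50.2% of all probe sets were. KO1 shoots replicate 1 was below the WT mean in all 44 members, where 20372 of all 28583 probe sets were. Its median deviation was -1.36 in plastid and -1.83 in nuclear genes, against -0.20 over all probe sets. Without that array the median of the members was -0.16, against -0.02 over all probe sets, and 0 members passed. Negative differences were left in 40 of 44 members, 35 of 35 plastid and 5 of 9 nuclear ones, where 54.4% of all probe sets had them. At an unadjusted p under 0.05, petG alone was lower without that array, where 7.00% of all probe sets were. Without KO1 shoots replicate 2 there were 35 such members, where 13.9% of all probe sets were lower, without replicate 3 there were 12, where 12.9% were, and in 1 fit of all 17 arrays there were 14, where 14.8% were. None of them passed the threshold. KO1 shoots replicate 3 was also below the WT mean in 35 of 35 plastid members (median deviation -0.26), and replicate 2 in 32 of 35 (-0.06), as were KO3 shoots replicate 1 in 34 (-0.14) and WT shoots replicate 2 in 32 (-0.05). Of all 28583 probe sets, 15191, 16067, 14212 and 14595 were below it on these arrays, in that order.

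The largest negative differences in KO1 shoots were those of ndhF, NdhL and ndhH. ndhF had 7.26, 10.10 and 9.78 in KO1 shoots against 10.16, 10.22 and 10.52 in WT shoots, a log2 difference of -1.25 (standard error 0.63, adjusted p = 0.522, and exact permutation p = 0.1, the smallest that 3 arrays against 3 allow). NdhL had 5.94, 8.93 and 8.79 in KO1 shoots against 9.02, 9.06 and 9.23 in WT shoots, a difference of -1.22 (standard error 0.68, adjusted p = 0.551). ndhH had 7.37, 10.15 and 9.80 in KO1 shoots against 10.25, 10.15 and 10.44 in WT shoots (-1.17, standard error 0.61, adjusted p = 0.529). In each of these genes replicate 1 alone was more than 2 log2 units below the rest, and without it the KO1 differences of ndhF, NdhL and ndhH were -0.36, -0.24 and -0.305.

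The signals of the low array were not shifted evenly. Relative to the WT mean its median deviation was -1.96 in plastid NDH genes and -1.07 in plastid photosystem II genes, with -0.73 for rbcL and -0.66 for psbA. Its plastid members nevertheless stood at a median percentile of 99.7 and its nuclear members at 98.2, beside 99.7 to 99.8 and 98.2 to 98.7 in the other shoot arrays. LHCB4.3 had the only positive difference in KO1 shoots, at 1.19, 1.56 and 1.38 against 1.43, 1.30 and 1.27 in WT shoots (0.04, standard error 0.16, adjusted p = 0.951). Other plastid genes had a median of -0.96 in KO1 shoots with all 28 negative, and of -0.26 without replicate 1, again with all 28 negative.

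KO3 shoots differed little from WT shoots. The members had a median of -0.02 and a range of -0.12 to 0.27, with 16 positive and 28 negative, where 51.0% and 48.7% of all probe sets were. The largest positive difference was that of LHCB4.1, with 8.13, 8.27 and 8.29 in KO3 shoots against 7.91, 7.93 and 8.04 in WT shoots. These did not overlap. PSAE-1 also lay above every WT array, where 6.73% of all probe sets did, and the plastid genes petG and psbI lay below every WT array, where 6.66% did. Yet the log2 difference of 0.27 had a standard error of 0.44 in a fit that shares its spread with KO1 (adjusted p = 0.999, exact permutation p = 0.1). LHCB4.2 had 0.16 and PSBW 0.08, while NdhL had -0.12, petG -0.11 and psbM -0.10, all with an adjusted p of 0.999. Without KO1 shoots replicate 1 the KO3 median stayed at -0.02 and no member passed.

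**Figure D3:**
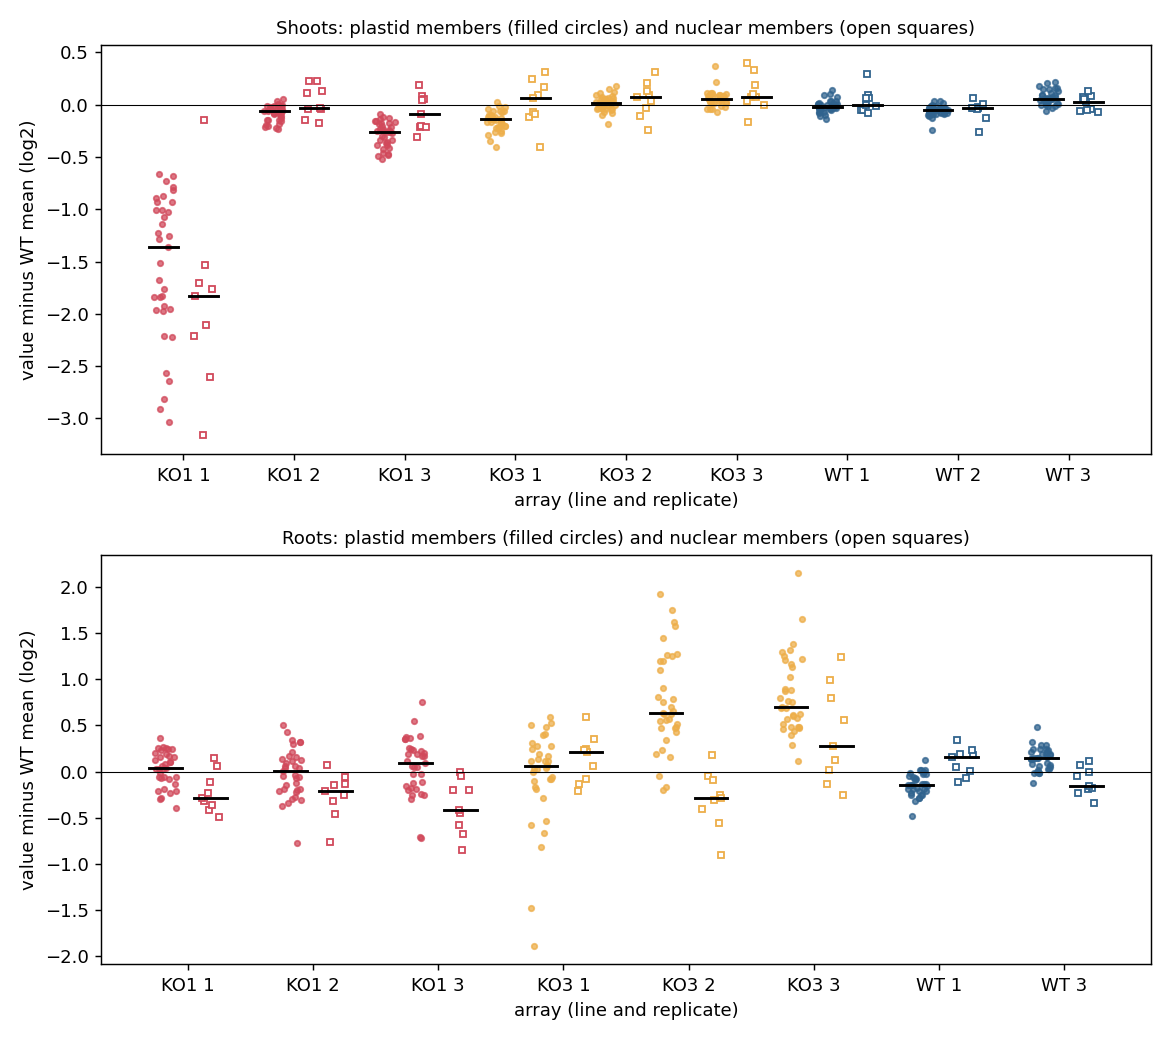
Each point is 1 gene on 1 array (x axis, line and replicate) as its log2 signal minus the WT mean of the organ (y axis), with plastid genes as filled circles, nuclear genes as open squares and black lines at the medians. KO1 shoots replicate 1 lies below 0 in all genes, with medians of -1.36 and -1.83, and the plastid medians of KO3 roots replicates 2 and 3 are 0.64 and 0.70, against 0.06 in replicate 1.

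In roots, no member passed the threshold either, in KO1 or in KO3 against WT. Over all probe sets, 0.0875% were called higher and 0.0350% lower in KO1 roots, and 0.140% higher and 0.105% lower in KO3 roots. The members of KO1 roots had a median of -0.02, with 35 plastid members at a median of 0.01 and all 9 nuclear members negative (median -0.305), where 48.2% of all probe sets were negative. NdhN alone had an unadjusted p under 0.05, where 5.02% of all probe sets were so higher and 3.90% lower, with 1.28, 1.18 and 1.22 in KO1 roots against 1.82 and 1.46 in WT roots. Its log2 difference of -0.41 had an adjusted p of 0.539, and all of these signals were under the array median.

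The largest values in KO1 roots ran in both directions, and 3 members lay above and 10 below both WT arrays, where 12.1% and 11.5% of all probe sets did. ndhF had 4.85, 5.12 and 5.37 in KO1 roots against 4.14 and 5.10 in WT roots (0.49, standard error 0.34, adjusted p = 0.710), psaA had a difference of 0.38 and ndhK, a subunit of the NDH complex, one of 0.355. Without WT roots replicate 1, ndhF, psaA and ndhK had 0.01, 0.09 and 0.18. Without WT roots replicate 3 they had 0.97, 0.67 and 0.53. On the other side psbM had 4.22, 3.74 and 3.81 in KO1 roots against 4.50 and 4.54 in WT roots (-0.60, standard error 0.75, adjusted p = 0.867). PSBW had -0.57 and PSAE-1 -0.53, with the KO1 and WT root arrays of PSBW overlapping and those of PSAE-1 apart. PSBW and PSAE-1 had -0.23 and -0.30 without WT roots replicate 1, and -0.92 and -0.76 without WT roots replicate 3. With 3 arrays against 2 an exact two-sided permutation test cannot go below p = 0.2.

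In KO3 roots most plastid members had positive differences, none of which reached the threshold. Of the 35 plastid members, 34 had a positive log2 difference, where 51.6% of all probe sets did, with a median of 0.45 against 0.01 over all probe sets. At an unadjusted p under 0.05, 16 plastid members had positive differences and none negative ones, where 6.54% of all probe sets were higher and 5.48% lower. The 16 were 7 NDH genes (ndhA, ndhC, ndhF, ndhG, ndhH, ndhJ and ndhK), the photosystem II genes psbB, psbH, psbK and psbN, petA, petB and petD, and psaA and psaB. In 1 fit of all 17 arrays 6 members had such a p, where 3.68% of all probe sets were higher. The 9 nuclear members had a median of 0.09 and no nuclear member had such a p, and of the 28 other plastid genes 26 were positive and 10 had an unadjusted p under 0.05, with a median of 0.38. With 1 root array left out, the nuclear median ranged from -0.13 (without KO3 roots replicate 3) to 0.19 (without replicate 2) and the plastid median from 0.34 (without replicate 3) to 0.715 (without replicate 1).

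ndhC, a subunit of the membrane arm of the NDH complex, came closest to the threshold. It had 6.59, 7.26 and 7.28 in KO3 roots against 5.92 and 6.21 in WT roots, a log2 difference of 0.98 (standard error 0.21, adjusted p = 0.104, exact permutation p = 0.2). ndhC was among the 10 of 35 plastid members whose KO3 and WT root arrays did not overlap, where 13.2% of all probe sets lay apart in this direction. ndhF had 5.12, 6.24 and 5.87 in KO3 roots against 4.14 and 5.10 in WT roots (1.12, standard error 0.34, adjusted p = 0.232). psbH, a phosphorylated photosystem II subunit, had 6.39, 7.32 and 7.88 in KO3 roots against 5.97 and 6.47 in WT roots, which overlapped (0.98, standard error 0.35, adjusted p = 0.313). psbB, the gene of the inner antenna protein CP47, had 8.58, 8.64 and 9.28 in KO3 roots against 7.66 and 8.31 in WT roots (0.85, standard error 0.24, adjusted p = 0.210).

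On the other side, 3 nuclear members and psaI had negative differences in KO3 roots. LHCB4.3 had 0.86, 1.02 and 0.94 in KO3 roots against 1.12 and 1.02 in WT roots (-0.13, standard error 0.14, adjusted p = 0.775). NdhN had -0.10 and LHCB4.1 -0.02, and psaI had -0.02, with 7.52, 8.96 and 8.45 in KO3 roots against 8.35 and 8.32 in WT roots. All of these lay within the spread of the arrays.

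The KO3 root arrays did not share 1 pattern. Replicate 3 was above the WT root mean in 35 of 35 plastid members and replicate 2 in 32. Replicate 1 was above it in 21 and below it in 14. Of all 28583 probe sets, 14248, 13296 and 15411 were above it in replicates 3, 2 and 1. The median SD over plastid members was 0.57 in KO3 roots, against 0.09 in KO1 roots and 0.21 in WT roots (2 arrays). WT roots replicate 1 was below the WT mean in 29 of 35 plastid members, where 14456 of all 28583 probe sets were. Leaving it out left 1 plastid member (ndhC, 0.83, adjusted p = 0.693) with an unadjusted p under 0.05, where 2.85% of all probe sets were higher at that level. Leaving out KO3 roots replicate 1 gave 30, where 6.89% of all probe sets were higher, and ndhC (1.205, adjusted p = 0.0380) and psbT (2.04, adjusted p = 0.0235) passed the threshold, where 0.112% of all probe sets were called higher. Without KO3 roots replicate 3 there were 7 plastid members, where 5.42% of all probe sets were higher, and without replicate 2 there were 10, where 5.63% were, and none passed.

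In some joint transcripts most or all members peaked on the same KO3 root array, and other joint transcripts were divided. The grouping into transcription units is textbook knowledge of the plastid genome and was drawn up after the values were seen, so the counts are a description. Replicate 3 was highest for all 5 members of the psbB unit (psbB, psbT, psbH, petB and petD), all 3 of the ndhC unit (ndhC, ndhK and ndhJ) and both of the psaA unit (psaA and psaB). Replicate 2 was highest for 6 of 7 members of the ndhH unit (ndhH, ndhA, ndhI, ndhG, ndhE and ndhD, with psaC at 8.27 in replicate 2 and 8.36 in replicate 3) and for psaI and petA. Some of these leads were narrow. In replicates 2 and 3 ndhC had 7.26 and 7.28, petB 9.53 and 9.66, and ndhH 7.56 and 7.42. The petL, psbE and psbK units were divided, with petG at 7.62, 9.11 and 8.20 in the KO3 root arrays and psaJ of the same unit at 8.37, 8.37 and 9.43.

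Over all 35 plastid members, replicate 2 was highest in 15, replicate 3 in 20 and replicate 1 in 0. Replicate 1 was the lowest in 32, and 2 small photosystem II genes were furthest below WT there, psbT at 1.78 and psbM at 2.63, against 3.01 and 3.51 and against 4.50 and 4.54 in WT roots. psbM had 6.27 in replicate 2 and 4.98 in replicate 3, so its 3 KO3 values lay on both sides of the WT values, and its mean differed by 0.11. rbcL and psbA were led by replicate 3 alone, at 9.66, 9.21 and 10.63 and at 10.43, 10.08 and 11.29 in KO3 roots, against 9.22 and 9.60 and 9.91 and 10.34 in WT roots.

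**Figure D4:**
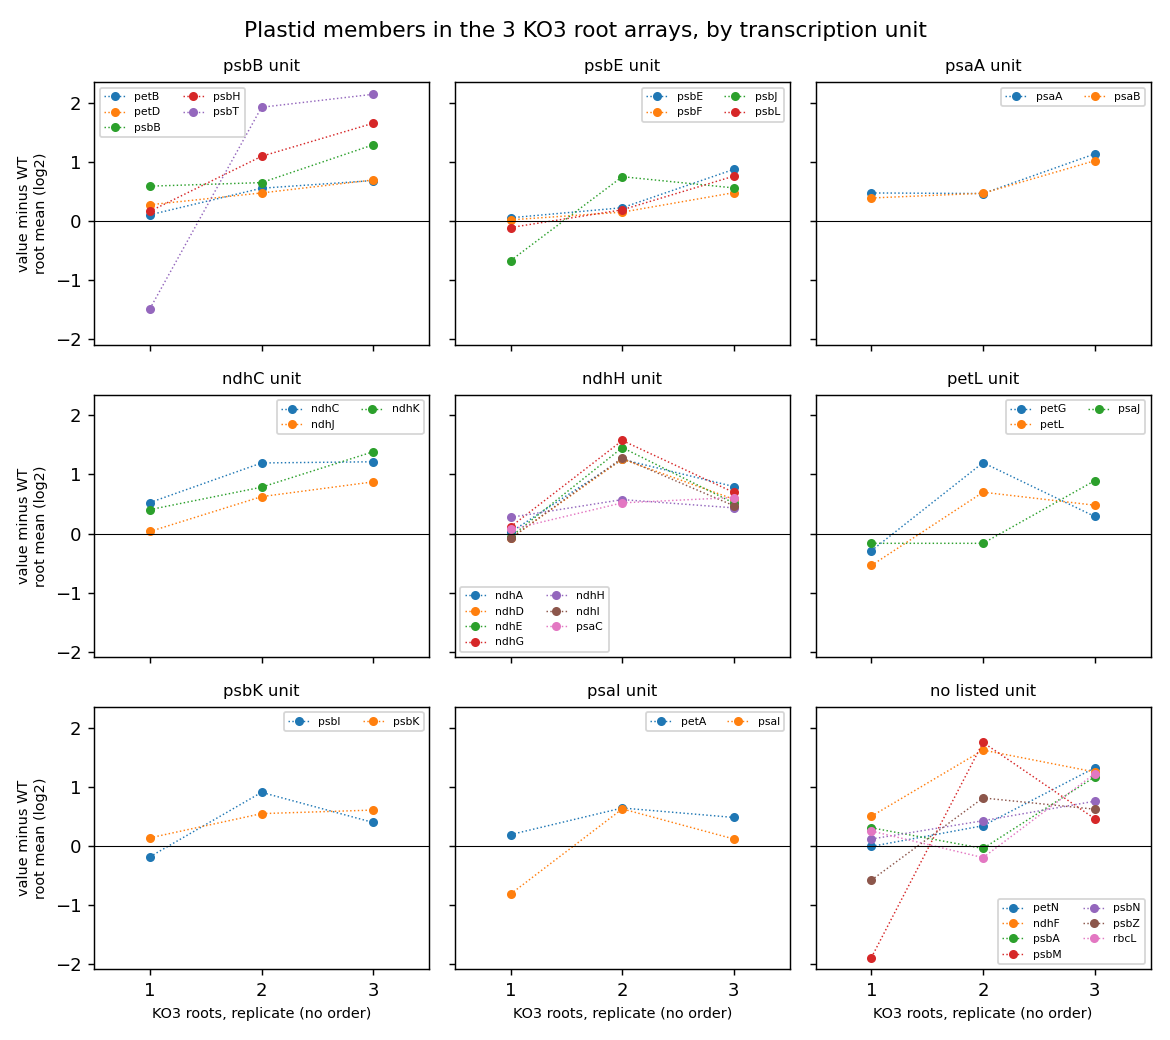
Each panel is a transcription unit of the plastid genome, except the last, which holds 7 genes of no listed unit, and each point a gene on 1 of the 3 KO3 root arrays (x axis, replicates without order) as its log2 signal minus the WT root mean (y axis), with dotted lines that only join the points of a gene. The ndhH unit is highest in replicate 2 in 6 of 7 genes and the psbB unit in replicate 3 in 5 of 5, and psbT and psbM in replicate 1 are the lowest points.

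In KO3 roots replicate 2 nuclear and plastid members lay mostly on opposite sides of the WT mean, but not in the other KO3 root arrays. WT roots replicate 3 had 29 of 35 plastid members above the WT mean and 7 of 9 nuclear members below it. WT roots replicate 1 was its mirror image, as the WT mean lies midway. KO1 roots replicates 1, 2 and 3 had 21, 18 and 21 of 35 plastid members above it, and 7, 8 and 8 of 9 nuclear members below it. Of all 28583 probe sets, 14456 were above it in WT roots replicate 3, and 14098, 14488 and 14477 in KO1 roots replicates 1, 2 and 3. In KO3 roots replicate 2, 8 of 9 nuclear members were below the WT mean, with a median of -0.29, while 32 of 35 plastid members were above it. In replicate 1, 6 of 9 nuclear and 21 of 35 plastid members were above it. Of all 28583 probe sets, 15411, 13296 and 14248 were above the WT mean in replicates 1, 2 and 3. In replicate 3, 7 of 9 nuclear and 35 of 35 plastid members were above the WT mean, and PSBW reached 4.41 and PSAE-1 2.51, against 3.51 and 2.82 and against 1.75 and 1.29 in WT roots. The nuclear Calvin cycle genes RCA, PRK and SBPASE had a mean signal of 2.14, 1.67 and 2.67 in KO3 roots replicates 1, 2 and 3, against 2.20 and 2.11 in WT roots. The mean signal of the 6 shoot markers, YAB3, YAB2, YAB5, SPCH, MUTE and FMA, was 1.32, 1.08 and 1.19 in KO3 roots replicates 1, 2 and 3, beside 1.06 to 1.20 in KO1 roots and 1.16 and 1.20 in WT roots, and 2.58 to 3.32 in shoot arrays. The part of green tissue in these root values was not tested. The mean of the 2 root markers EXPA7 and EXPA18 was 4.96, 4.51 and 5.07 in KO3 roots, against 5.005 and 5.035 in WT roots.

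KO1 and KO3 were also compared directly, without WT. In shoots all 44 members had a negative KO1 minus KO3 difference, with a median of -0.63, where 66.6% of all probe sets were lower, and none had an unadjusted p under 0.05, where 5.60% of all probe sets were lower at that level. Without KO1 shoots replicate 1 the median was -0.14 with 42 of 44 negative, where 57.9% of all probe sets were, and after quantile normalisation of the shoot arrays it was -0.09 in plastid and 0.035 in nuclear members. In roots 43 of 44 were negative, with a median of -0.44 where 49.9% of all probe sets were lower, and 13 plastid members had an unadjusted p under 0.05, where 1.58% of all probe sets were lower at that level. ndhC had the lowest p of these, with 6.22, 6.39 and 6.23 in KO1 roots against 6.59, 7.26 and 7.28 in KO3 roots (-0.76, adjusted p = 0.997). No member passed the threshold in either organ, where 0 probe sets passed in shoots and 0.00350% were called higher and 0 lower in KO1 roots.

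The signed difference of a line from WT in shoots, minus that in roots, was tested in 1 fit of all 17 arrays. No member passed. Member medians against WT were -0.58 in KO1 shoots and -0.02 in KO1 roots, and -0.02 in KO3 shoots and 0.43 in KO3 roots. The median of the shoot minus root effect over the members was -0.57 in KO1 and -0.46 in KO3, beside -0.11 and 0.00 over all probe sets, of which 0.0140% were called higher and 0.469% lower in KO1, and 0.0175% higher and 0.157% lower in KO3. At an unadjusted p under 0.05, petD (-0.75), psaA (-0.76) and ndhF (-1.75) had negative values in KO1 and psaA (-0.73) and psbB (-0.83) in KO3, with adjusted p of 0.359, 0.421, 0.436, 0.768 and 0.695, where 9.09% and 3.66% of all probe sets were lower. Without KO1 shoots replicate 1 the KO1 median over the members was -0.12, with -0.22 in plastid and 0.225 in nuclear members, and petD alone had such a p, where 7.46% of all probe sets were lower. The KO1 values above hold that array, and those of both lines share the WT arrays.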

How the data were processed

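The deposited values are log2 signals that the authors made with RMA in Transcriptome Analysis Console (TAIR10), 1 value per probe set and array, with 17 arrays and 28583 probe sets. Array data give no read depth, and the number of arrays limits the precision. The platform table names 17504 probe sets, 16746 with a single symbol, 758 with several, and 11079 have no name here. All 44 member identifiers matched the reference table. Lines were compared within each organ with limma 3.58.1 (R 4.3.3; lmFit, eBayes, 3 lines in 1 fit), Benjamini-Hochberg over all probe sets, threshold 0.05, with no filter on low values. Line effects in shoots minus roots came from 1 fit of 17 arrays, and shoots against roots from that design after quantile normalisation of all arrays. Exact two-sided permutation tests and medians of log2 differences between lines were also computed in R. Summaries of arrays and figures used Python 3.11.15, NumPy 2.4.6, pandas 2.3.3 and matplotlib 3.10.9. The fits were tested on simulated data.

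Genes described in full were, by rule, members past the threshold in a KO against WT comparison, the 3 with the largest positive and the 3 with the largest negative difference in each, and the brightest in shoots of each class and genome; petG, psbB, psbT, psbM, petN, psaI, psaJ and NdhN were added after their values were seen. Members and lists were chosen with earlier results of these data known. P-values measure the spread between the samples, each of at least 3 plants. NBR1 was named by its probe set from the study's supplementary tables. The paper states that single plants were split into shoot and root. The labels do not say whether replicate numbers pair the samples, and the main fits did not use them as pairs. The fits across organs thus treated shoot and root samples as independent. Alternatives were other scalings, array weights, trended eBayes, fits of other samples, filters, and each array left out.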

Additional observations from a re-analysis of the deposited data

How the results depend on the processing

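No member passed the threshold in a KO comparison under any of the other scalings, weights, filters and fits tried. With 1 array left out, the count of members higher in KO3 roots ranged from 0 to 2 (ndhC and psbT, without KO3 roots replicate 1), and it was 0 in the other KO against WT comparisons. Some small differences changed sign. With 1 array left out, LHCB4.3 in KO1 shoots ranged from -0.048 (without KO1 shoots replicate 2) to 0.137, NdhL in KO3 shoots from -0.218 to 0.0217 (without KO3 shoots replicate 1), NdhN in KO3 roots from -0.283 to 0.0767 (without WT roots replicate 1), and LHCB4.1 in KO3 roots from -0.175 to 0.165 (without KO3 roots replicate 2). LHCB4.1 in KO3 roots was also 0.032 with array weights and 0.0075 with a replicate block. The cause was not tested. Leaving out 1 array gave medians of -0.39 to -0.23 for nuclear and -0.10 to 0.17 for plastid members in KO1 roots. The KO1 against KO3 and shoot minus root medians without KO1 shoots replicate 1, the quantile-normalised KO1 against KO3 medians, and the order of the lines on other scales were chosen after seeing the data.

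The medians of shoots against roots depended on the scale. As deposited, nuclear and plastid members had 6.65 and 3.19 in KO1, 7.24 and 3.23 in KO3, and 7.39 and 3.76 in WT, and with array medians subtracted 7.50 and 4.04, 8.06 and 4.05, and 8.19 and 4.57. With 1 array left out they ranged from 6.96 to 7.41 and 2.704 to 2.91 in KO1, and from 6.87 to 7.07 and 2.85 to 3.26 in WT. Counts over all probe sets moved more: 108 were called in KO1 shoots, and 811 in 1 fit of 17 arrays or 43 when only the compared groups were fitted; 70 were called in KO3 roots, and 0 without WT roots replicate 1 or 209 without WT roots replicate 3. In KO3 shoots 53 were called, and 12 to 320 with 1 array left out, and in KO1 roots 35, and 2 to 85. At an unadjusted p under 0.05, KO1 shoots had 0 members, and 14 in 1 fit of 17 arrays; KO3 roots had 16, and 6 in that fit and 1 to 30 with 1 array left out.

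Same-numbered samples had residual correlations of -0.05 to 0.22 between lines in roots and -0.13 to 0.30 in shoots, over 0.1 in 3 of 7 and 4 of 9 pairs. Differently numbered samples had -0.22 to 0.07 and -0.27 to 0.24, over 0.1 in 0 of 14 and 5 of 18 pairs. Between shoots and roots of a line, equal numbers gave 0.03 to 0.24 and unequal numbers -0.24 to 0.13. Residuals cancel within each group, so in all of these sets the values of unequal numbers are partly fixed by those of equal numbers. The main fits did not read the numbers as pairs, and whether they mark pairs was left undecided. With the replicate block 0 members passed in each KO comparison. For shoots against roots, a block of line and number shared by both organs gave plastid medians of 2.78 in KO1, 2.27 in KO3 and 3.03 in WT. Signals near background on the root arrays limit what can be said of nuclear members there.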
